A study of Mus musculus with 32 samples.

Results

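A set of 10 genes that mark the turn of cortical progenitors from making neurons to making glia was followed through mouse cortical development. They were taken by symbol from a table of 32285 genes, and all 10 were present: Olig1, Olig2 and Pdgfra of the oligodendrocyte lineage, Slc1a3, Aldh1l1, Aldoc, Apoe and Sparcl1 of astrocytes, and Tnc and Hopx of late and basal radial glia. The measurements were single-cell RNA-seq profiles of the dorsal telencephalon, which forms the cerebral cortex, of C57BL/6J mouse embryos. Tissue was taken at 4 stages, embryonic days E12.5 and E14.5 and then E16.0 and E17.5, from wild-type embryos (WT) and from embryos heterozygous for loss of Chd8 (Chd8+/-), a gene for a chromatin remodelling protein. There were 4 libraries per genotype and stage, each from 1 embryo, and 32 in all.

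Per the labels' protocols, each Chd8+/- embryo was matched to a WT embryo of its own litter and sex. The pairs of a stage are named M1 and M2 (males) and F1 and F2 (females), and groups of 4 values below follow that order. Medial tissue was cut away in the dissection, to keep out the future hippocampus. The labels give the Chd8 genotype without naming the allele or a cell type to which it is limited. Stages came from different litters and library preparations, so that stage and litter cannot be told apart.

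Radial glia are the stem cells of the embryonic cortex. They first make neurons, directly or through intermediate progenitors, and late in gestation they pass through a gliogenic switch in which the NFI factors, SOX9 and signalling through JAK and STAT proteins take part. Astrocyte genes then come on in the progenitors themselves, while oligodendrocyte precursors, which carry the growth factor receptor encoded by Pdgfra, arise both in ventral parts of the forebrain, from which they migrate into the cortex, and from late cortical progenitors that switch on Olig1, Olig2 and Egfr.

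Counts were summed over a pair of populations: all retained cells, and "Fabp7-high" cells, those with 5 or more unique molecular identifiers (UMIs, each standing for 1 captured RNA molecule) of Fabp7, a fatty acid binding protein of radial glia. Levels are given as CPM, the UMIs of a gene for every 1000000 UMIs of that population in a library. The libraries held 14710694 to 66499864 UMIs. The retained cells numbered 138226, of which 41789 were Fabp7-high, at 349 to 2553 cells and 3014493 to 33228746 UMIs per library. All 7 radial glia markers checked (Sox2, Pax6, Hes1, Hes5, Vim, Nes and Mfge8) were present in the Fabp7-high cells of each library, with a summed level of 2236 to 4625 CPM. The gate is not pure: markers of excitatory neurons summed to 236 to 1698 CPM, those of intermediate progenitors to 343 to 1668 CPM, those of microglia and macrophages to at most 19.3 CPM and those of endothelial cells to at most 158 CPM. Fabp7 itself rose within the gate. It stood at 1245 to 2167 CPM at E12.5, 3050 to 4176 CPM at E14.5, 6240 to 7476 CPM at E16.0 and 7028 to 8988 CPM at E17.5. A fixed gate of 5 UMIs therefore need not take the same kind of cells at each stage. Of 131914 distinct barcodes, 12378 occurred in more than 1 library, and no pair of libraries shared over 1.3% of its barcodes.

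Some libraries stood apart. At E12.5 the first principal component of Fabp7-high profiles, with 67.8% of the variance, set Chd8+/- M1, F1 and F2 apart from the 4 WT libraries and Chd8+/- M2. Chd8+/- M1, F1 and F2 also had the lowest depth, at a median of 4088 to 5955 UMIs per retained cell. The others of that stage had 8551.5 to 10530 UMIs. At E14.5 and at E16.0 the first component separated males from females, which at those stages also carry library codes that begin differently. At E17.5 it set WT M1, Chd8+/- M1 and Chd8+/- F1 apart. These 3 and WT F1 carry 4 different library codes of 1 form, which the other 4 libraries of the stage do not have and whose meaning the labels do not give. In those 4 libraries Fos stood at 147 to 230 CPM and the heat shock gene Hspa1a at 31.2 to 55.1 CPM, against 27.9 to 50.7 and 0.865 to 2.11 CPM in the other 4. Values with and without these libraries stand beside the results they touch. Chd8 itself was at 38.4 to 40.7 CPM in WT and 16.3 to 33.7 CPM in Chd8+/- Fabp7-high cells at E12.5. Averaged over the stages it was 1.21-fold lower in Chd8+/-, with a log2 fold change of -0.28 (SE 0.07). Its edgeR p was 0.000601 unadjusted and 0.0896 when adjusted over all genes, which missed the threshold of 0.05. From E14.5 on the ranges of the genotypes overlapped, while the Chd8+/- mean was below the WT mean at every stage. In all cells they overlapped at E14.5 and E17.5 but not at E16.0, at 51.2 to 56.8 CPM in WT and 38.1 to 47.9 CPM in Chd8+/-.

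In build GRCm38, Olig2 (chr16:91225457-91228677) and Olig1 (chr16:91269772-91271933) are neighbours on the plus strand of chromosome 16, with 41094 bases between them. Both encode basic helix-loop-helix factors of the oligodendrocyte lineage. The other members lie apart from each other: Pdgfra at chr5:75152292-75198215, Slc1a3 at chr15:8634124-8710764, Aldh1l1 at chr6:90486427-90600203, Aldoc at chr11:78322968-78327781, Apoe at chr7:19696109-19699188, Sparcl1 at chr5:104079111-104113733, Tnc at chr4:63959785-64047015 and Hopx at chr5:77086988-77115121. Whether counting used strand is not given in the sources used here, and without strand the reads of overlapping genes cannot be told apart. Genes on the opposite strand overlap Olig1 (Gm15966), Pdgfra (Gm42802 and Gm42803), Aldh1l1 (Gm15756), Sparcl1 (Gm26703), Tnc (8030451A03Rik) and Hopx (Hopxos). No annotated gene overlaps Olig2, Aldoc or Apoe.

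The table of RefSeq promoters (GRCm38.p6) held 13 start sites for 8 of the members. Because all members were higher at E17.5 than at E12.5, the 250 bases before each start were searched on both strands for 3 short motifs of gliogenic factors: the NFI half-site TTGGC, the SOX core ACAAT, and the STAT palindrome TTCNNNGAA. The NFI half-site occurred in 6 of the 13 member windows and in 41.5% of all 32851 promoters, the SOX core in 7 and in 27.7%, and the STAT palindrome in 2 and in 7% of all. A match describes these letters and does not show that a factor binds there. The stretch upstream of the annotated gene is shown for an early astrocyte gene (Slc1a3), for the gene nearest to its highest stage mean by E14.5 (Aldoc), for a late radial glia gene (Tnc) and for an oligodendrocyte regulator (Olig2), each 5′ to 3′ on the gene's strand with motif matches in capitals. The Slc1a3 stretch (chr15:8710808-8711057, minus strand) holds a SOX core and a STAT palindrome, the Aldoc stretch (chr11:78322823-78322967, plus strand) a SOX core and an NFI half-site, the Tnc stretch (chr4:64047016-64047265, minus strand) a pair of SOX cores, and the Olig2 stretch (chr16:91225300-91225456, plus strand) an NFI half-site.
Slc1a3: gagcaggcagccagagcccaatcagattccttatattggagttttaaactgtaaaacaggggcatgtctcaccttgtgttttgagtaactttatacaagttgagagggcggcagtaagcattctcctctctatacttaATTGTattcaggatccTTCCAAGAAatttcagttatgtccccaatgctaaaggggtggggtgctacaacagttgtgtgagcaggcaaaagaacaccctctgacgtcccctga
Aldoc: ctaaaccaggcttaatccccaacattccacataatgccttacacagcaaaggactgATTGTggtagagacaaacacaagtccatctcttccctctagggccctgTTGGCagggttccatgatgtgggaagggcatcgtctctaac
Tnc: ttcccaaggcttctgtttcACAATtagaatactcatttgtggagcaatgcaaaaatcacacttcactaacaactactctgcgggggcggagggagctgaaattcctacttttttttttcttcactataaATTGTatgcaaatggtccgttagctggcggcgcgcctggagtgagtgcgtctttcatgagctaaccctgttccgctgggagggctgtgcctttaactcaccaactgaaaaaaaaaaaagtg
Olig2: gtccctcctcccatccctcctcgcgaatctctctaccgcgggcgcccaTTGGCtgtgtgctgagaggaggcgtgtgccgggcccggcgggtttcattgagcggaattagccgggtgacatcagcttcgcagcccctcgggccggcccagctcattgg

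In WT Fabp7-high cells all 10 genes were higher at E17.5 than at E12.5, but they rose at different steps. A gene was called when its Benjamini-Hochberg adjusted p over all genes tested was under 0.05 in edgeR's quasi-likelihood test of summed counts. From E12.5 to E14.5, 7 of 10 rose and none fell, where 31.7% of the 13734 genes tested were called in either direction. From E14.5 to E16.0, 9 of 10 rose, against 8.29% of all genes called. From E16.0 to E17.5, 6 rose and Aldoc fell, against 17.1% of all genes. Over the whole span all 10 were called, against 55.5% of all genes, and the median log2 fold change of the 10 was 4.81, against 0.00 over all genes tested. All 10 passed the filter on low counts. The set was proposed with results of these data in view, so these counts describe the genes and are not independent evidence for the set.

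**Figure D1:**
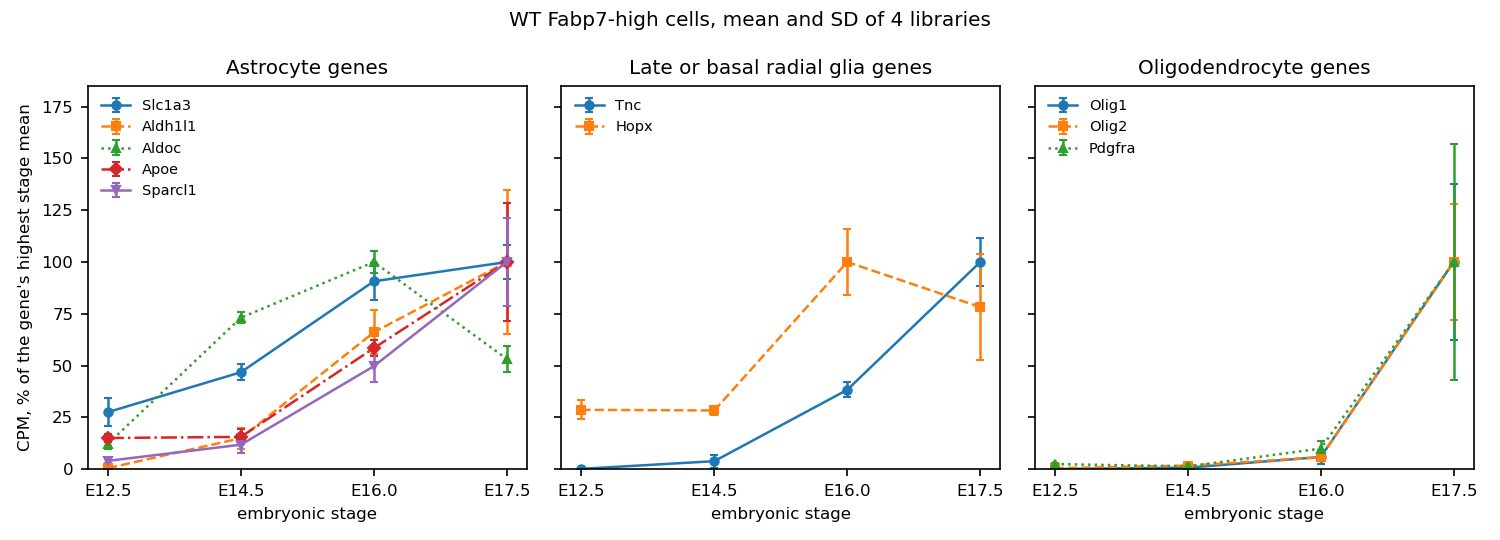
Mean CPM of each gene over the 4 WT libraries of a stage, as a percentage of the gene's highest stage mean, in Fabp7-high cells. Aldoc stood at 73.1% of its highest mean by E14.5, whereas Olig1, Olig2 and Pdgfra were still below 10% at E16.0.

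Of the 7 genes that rose in the first step, Aldoc came nearest to its highest stage mean by E14.5, although Tnc, Aldh1l1 and Olig1 rose by larger folds in that step. Aldoc encodes the brain isozyme of the glycolytic enzyme aldolase and marks radial glia and astrocytes. Its level at E12.5 was 118, 102, 97.6 and 68.1 CPM in the WT libraries and 116, 89.4, 124 and 82.6 CPM in the Chd8+/- libraries. At E14.5 it was 549, 592, 586 and 591 CPM in WT and 617, 609.8, 556 and 567 CPM in Chd8+/-. All 8 libraries at E14.5 were thus far above all 8 at E12.5, and the WT log2 fold change was 2.50 (SE 0.14, adjusted p = 2.83e-14), a 5.65-fold rise. At E16.0 the values were 792, 844, 743 and 792 CPM in WT and 815, 695, 671 and 712 CPM in Chd8+/-. This step missed the threshold in WT, at 0.33 (SE 0.14, adjusted p = 0.138). At E17.5 Aldoc had fallen to 394, 493, 413 and 387 CPM in WT and 449, 509.5, 387 and 375 CPM in Chd8+/-, below every library of E14.5 and E16.0. The WT step from E16.0 to E17.5 was -0.88 (SE 0.14, adjusted p = 4.90e-05), which is 1.84-fold lower.

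The fall of Aldoc was also seen in how many cells held the RNA. With each cell thinned to 2000 UMIs, 10.01 to 17.6% of Fabp7-high cells per library had an Aldoc UMI at E12.5, 52.7 to 62.2% at E14.5, 54.2 to 62.9% at E16.0 and 31.5 to 41.1% at E17.5. Unthinned, the WT means were 47.03%, 80.7%, 77.5% and 49.9%. In cells with excitatory neuron markers and no Fabp7 UMI, which should lack the gene, the thinned share was 1.04 to 2.51% at E16.0 and 0.596 to 2.18% at E17.5. The median depth before thinning was 6116 to 8078 UMIs in Fabp7-high cells and 3371 to 4444 UMIs in these neurons at E17.5. In the Fabp7-high cells of that stage the markers of excitatory neurons summed to 882 to 1241 CPM, against 597 to 1019 CPM at E16.0, and their part in the fall of Aldoc was not tested.

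Slc1a3, which encodes the glial glutamate transporter GLAST and is already on in radial glia, rose by a smaller factor over a longer time. Its level was 146, 109, 119 and 78.7 CPM in the WT libraries at E12.5, 183, 196, 213 and 178 CPM at E14.5, 351, 371, 345 and 427 CPM at E16.0 and 451, 426, 375 and 396 CPM at E17.5. The Chd8+/- libraries ranged over 69.8 to 131, 174 to 225, 319 to 426 and 397 to 471 CPM at those stages. In WT, neighbouring stages did not overlap up to E16.0, whereas E16.0 and E17.5 did. The steps were 0.68 (SE 0.14, adjusted p = 0.000310), 0.83 (SE 0.14, adjusted p = 0.000133) and 0.17 (SE 0.14, adjusted p = 0.429), so that the last was not called. In male libraries alone the first step was 0.42 with an adjusted p of 0.0980. The promoter stretch shown above for Slc1a3 holds a SOX core, as do those of Aldoc and Tnc. So does the stretch upstream of Apoe, which was not called in the first step.

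Aldh1l1, a folate enzyme and a broad marker of astrocytes, was all but absent at E12.5 and climbed at E14.5 and E16.0. The WT libraries stood at 0.341, 0.123, 0.341 and 0.239 CPM at E12.5 and 7.01, 5.41, 8.95 and 11.9 CPM at E14.5. They reached 36.3, 36.8, 29.99 and 44.4 CPM at E16.0 and 49.95, 65.9, 76.1 and 31.4 CPM at E17.5. No library of E12.5 reached any of E14.5, and none of E14.5 any of E16.0, but E16.0 and E17.5 overlapped. The WT steps were 4.85 (SE 0.44, adjusted p = 6.24e-10), 2.02 (SE 0.29, adjusted p = 2.00e-05) and 0.63 (SE 0.27, adjusted p = 0.107). The last step was called with a gate of 10 Fabp7 UMIs (0.85, adjusted p = 0.0231) and without WT F2 of E17.5 (0.86, adjusted p = 0.0331). At E14.5 the 4 female libraries, WT and Chd8+/- together, stood at 8.54 to 11.9 CPM and the 4 male ones at 3.07 to 7.21 CPM, with no overlap. Sex and library code coincide at that stage and cannot be told apart.

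Sparcl1, a secreted protein of astrocytes that acts at synapses, rose at every step. Its WT values were 4.09, 3.28, 2.46 and 2.59 CPM at E12.5, 8.93, 12.6, 4.94 and 10.46 CPM at E14.5, 45.7, 42.3, 34.3 and 33.5 CPM at E16.0 and 90.1, 63.2, 95.2 and 64.99 CPM at E17.5. Each stage lay above the one before it without overlap. The steps were 1.48 (SE 0.32, adjusted p = 0.000599), 1.95 (SE 0.30, adjusted p = 3.80e-05) and 1.04 (SE 0.28, adjusted p = 0.00878). Without the 4 libraries of E17.5 that carry the high Fos and Hspa1a levels, the last step was 0.79 with an adjusted p of 0.0962. Part of the early level came from cells with vascular or meningeal markers: of 434 Sparcl1 UMIs in the Fabp7-high cells of E12.5, 79 lay outside the microglial, vascular and precursor gates, and of 753 at E14.5, 521 did. Without cells that hold 3 or more microglial or vascular marker UMIs the Sparcl1 steps were 3.45, 2.01 and 1.36, with adjusted p-values of 9.03e-10, 8.61e-07 and 6.26e-05. At E14.5 Sparcl1 stood at 10.1 to 16.7 CPM in cells below the Fabp7 gate and 4.19 to 12.6 CPM in Fabp7-high cells. After thinning, 1.60 to 3.58% of excitatory neurons without Fabp7 held a UMI of it there, against 0.430 to 1.71% of Fabp7-high cells. At E17.5 these shares were 1.84 to 6.74% and 6.98 to 13.9%.

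Apoe, the lipid carrier that astrocytes and microglia secrete, was not called in the first step and then rose. The WT libraries stood at 20.5, 20.3, 26.7 and 21.4 CPM at E12.5 and 17.4, 23.1, 30.2 and 21.5 CPM at E14.5, an overlap with a log2 fold change of -0.037 (SE 0.22, adjusted p = 0.921). At E16.0 they stood at 93.1, 89.1, 81.9 and 82.2 CPM, which is 3.44-fold higher, with a step of 1.78 (SE 0.22, adjusted p = 1.91e-06). At E17.5 they stood at 128, 212, 128 and 125 CPM, a step of 0.81 (SE 0.21, adjusted p = 0.00759), in which WT M2 was far above the other 3. Without that library the step was 0.60 and its adjusted p 0.0571, and with a gate of 3 Fabp7 UMIs it was 0.70 with 0.0567. The 8 microglial markers summed to at most 19.3 CPM in any Fabp7-high library, and up to 8 of them were at 0 at E14.5. Without cells that hold 3 or more microglial or vascular marker UMIs, the rise from E14.5 to E16.0 was 1.73 and that from E16.0 to E17.5 0.88, with adjusted p-values of 2.47e-06 and 0.00398.

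**Figure D2:**
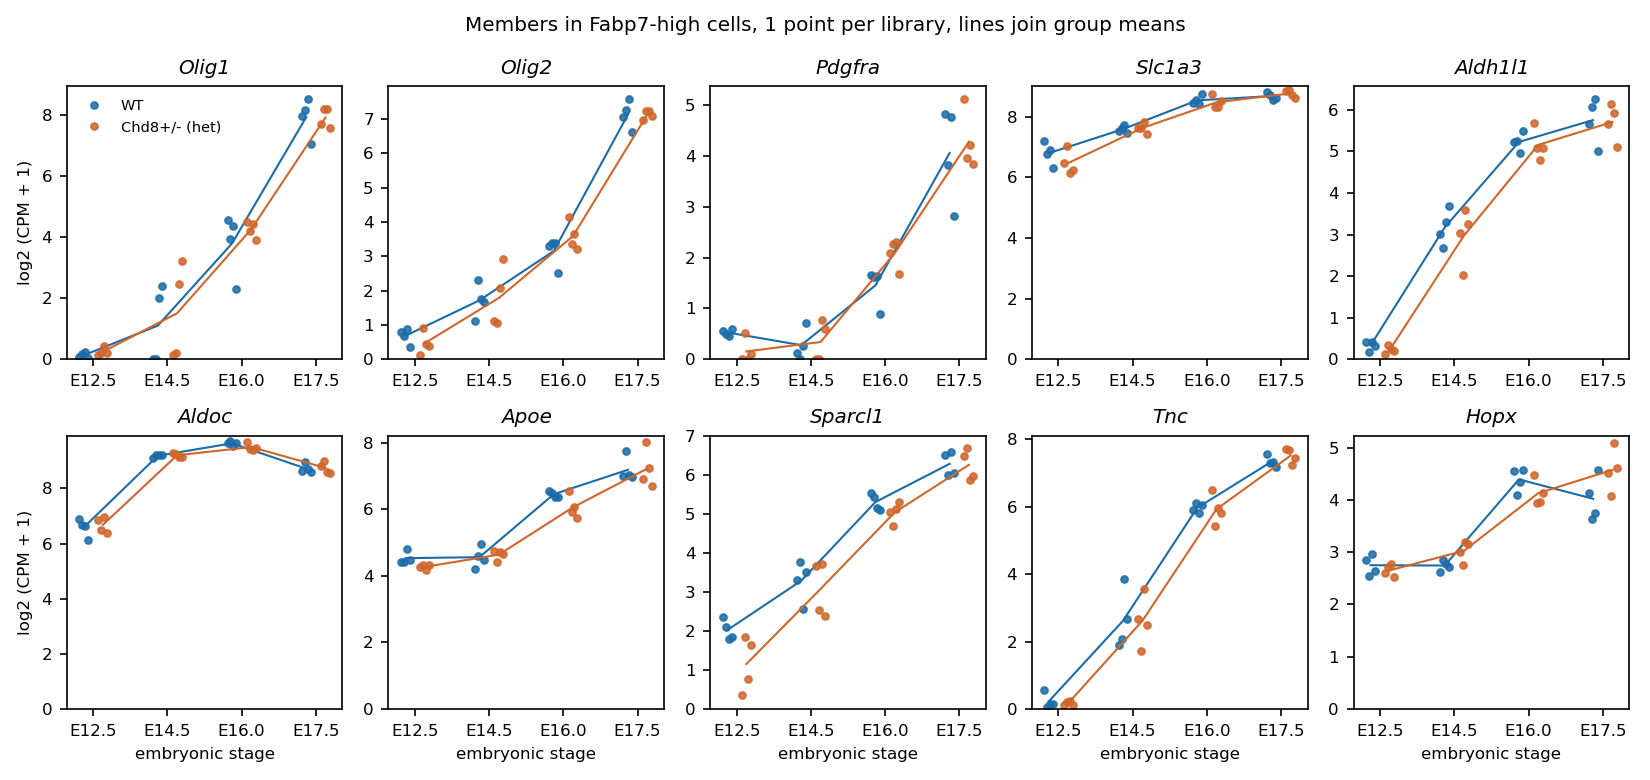
CPM of the 10 genes in Fabp7-high cells, 1 point per library, on a logarithmic axis of CPM + 1, by stage and genotype. The stages are far apart for Tnc, which goes from at most 0.469 CPM at E12.5 to at least 144 CPM at E17.5.

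Of the radial glia genes in WT, Tnc rose at each step and Hopx in 1 only. Tnc encodes tenascin C, a matrix protein of the germinal zone and of astrocytes. It stood at 0.469, 0.0410, 0.102 and 0.120 CPM in WT and 0.0959, 0.150, 0.177 and 0.0777 CPM in Chd8+/- at E12.5, and at 2.73, 3.19, 13.4 and 5.32 CPM in WT and 5.43, 2.29, 10.7 and 4.69 CPM in Chd8+/- at E14.5. At E16.0 the WT libraries reached 58.7, 68.2, 55.3 and 64.8 CPM and the Chd8+/- libraries 89.8, 42.3, 61.4 and 55.1 CPM. At E17.5 they reached 187, 155, 159 and 144 and 210.0, 204, 149 and 174 CPM. No stage overlapped the next in either genotype. The WT steps were 4.95 (SE 0.57, adjusted p = 6.62e-08), 3.21 (SE 0.35, adjusted p = 2.08e-07) and 1.41 (SE 0.30, adjusted p = 0.00126), and all 3 were called. The first starts from few molecules: the 4 WT libraries of E12.5 held 18 Tnc UMIs together.

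Hopx encodes a homeodomain protein without DNA binding of its own that marks basal radial glia in species with a folded cortex. No change was called before E16.0. The WT libraries stood at 6.22, 4.84, 6.82 and 5.23 CPM at E12.5 and 5.19, 6.21, 5.86 and 5.60 CPM at E14.5, with a step of -0.11 (SE 0.19, adjusted p = 0.709). At E16.0 they stood at 22.5, 16.01, 19.3 and 22.9 CPM, a 3.25-fold rise of 1.70 (SE 0.19, adjusted p = 5.03e-07). At E17.5 the WT libraries were spread over 16.6, 11.5, 12.4 and 22.8 CPM and the Chd8+/- libraries over 21.9, 15.8, 33.2 and 23.4 CPM. Both overlapped E16.0, and the WT step was -0.33 (SE 0.19, adjusted p = 0.238).

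At E16.0 the oligodendrocyte genes were the furthest of the 10 below their highest stage mean, at 5.84, 5.69 and 9.90% for Olig1, Olig2 and Pdgfra in WT. Olig1 and Olig2 were also called as rising in both earlier steps, with the limits given below. Olig1 was nearly absent at E12.5, where the 4 WT libraries held 10 UMIs together, and stood at 22.5, 14.3, 19.7 and 3.96 CPM in WT and 21.4, 17.4, 20.8 and 14.1 CPM in Chd8+/- at E16.0. At E17.5 it stood at 249.5, 286, 369 and 133 CPM in WT and 209, 293, 292 and 189 CPM in Chd8+/-. The lowest library of E17.5 was thus far above the highest of E16.0. The WT step was 4.14 (SE 0.54, adjusted p = 4.73e-06), which is 17.6-fold.

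Olig2, expressed also in ventral progenitors that make neurons, was low but present from E12.5 on and rose most in the last step. It stood at 0.725, 0.615, 0.853 and 0.279 CPM in WT at E12.5 and 1.18, 3.99, 2.37 and 2.20 CPM at E14.5. It stood at 8.94, 9.52, 9.54 and 4.71 CPM in WT at E16.0 and 132, 154, 192 and 96.9 CPM at E17.5, where Chd8+/- stood at 124, 149, 149.7 and 135 CPM. The last WT step was 4.17 (SE 0.34, adjusted p = 1.04e-09), which is 18.01-fold. Pdgfra, the receptor that drives precursors to divide, rose 10.1-fold in that step, by 3.34 (SE 0.47, adjusted p = 9.84e-06), from 2.17, 2.08, 2.12 and 0.849 CPM to 27.5, 13.1, 26.2 and 6.10 CPM in WT. Chd8+/- libraries stood at 3.27, 3.85, 3.96 and 2.20 CPM at E16.0 and 33.8, 14.48, 17.503 and 13.4 CPM at E17.5. At E17.5 the 4 libraries with high Fos and Hspa1a, of both genotypes, stood at 17.503 to 33.8 CPM and the other 4 at 6.10 to 14.48 CPM, without overlap. Without those 4 the WT step of Pdgfra was 2.48 (adjusted p = 0.00125), that of Olig1 3.86 and that of Olig2 4.01.

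The earlier steps of these 3 genes depended on which libraries and cells were taken. At E14.5 Olig1 was 0, 0, 2.98 and 4.31 CPM in WT and 0.104, 0.143, 4.54 and 8.37 CPM in Chd8+/-. The 4 male libraries stood at 0 to 0.143 CPM and the 4 female ones at 2.98 to 8.37 CPM, without overlap, and sex coincides with library code at that stage. The WT step from E12.5 to E14.5 was 3.99 (SE 1.29, adjusted p = 0.0179) over all libraries. It was 4.89 (adjusted p = 0.00719) in females and -3.37 (adjusted p = 0.288) in males, whose fitted value rests on 0 UMIs at E14.5 and is no measure of size. It missed the threshold without WT F1 (3.65, adjusted p = 0.0555) or WT F2 of E14.5 (3.03, adjusted p = 0.157). Pdgfra at E14.5 was likewise 0 to 0.0911 CPM in males and 0.206 to 0.706 CPM in females. Its WT step from E12.5 was -0.98 (SE 0.84, adjusted p = 0.403), and without cells that hold 3 or more microglial or vascular marker UMIs it was 1.53 (adjusted p = 0.323). Taken with a gate of 3 Fabp7 UMIs, this step was called as a fall (-2.13, adjusted p = 0.0144).

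From E14.5 to E16.0 the WT steps were 2.94 (SE 0.69, adjusted p = 0.00583) for Olig1, 1.62 (SE 0.41, adjusted p = 0.00984) for Olig2 and 2.78 (SE 0.75, adjusted p = 0.0163) for Pdgfra. In female libraries alone none of the 3 passed, with 1.52 (adjusted p = 0.344), 1.48 (0.198) and 1.58 (0.473). Leaving out WT M1 of E14.5 raised the adjusted p of Olig2 to 0.0574 and that of Pdgfra to 0.0672, and leaving out WT M2 raised that of Pdgfra to 0.0694. The first step of Olig2, 1.86 (SE 0.51, adjusted p = 0.00563), had an adjusted p of 0.0502 without WT M2 of E14.5.

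To see which Fabp7-high cells carried Olig1, cells with 3 or more Olig1 UMIs were counted, a cut chosen after the values were seen and used for description only. There were 0 at E12.5 and in the male libraries of E14.5, 1 to 4 cells in each female library of E14.5, 4 to 17 cells per library at E16.0 (0.305 to 1.002% of the Fabp7-high cells) and 38 to 78 at E17.5 (7.49 to 16.4%). At E16.0, 50 to 90% of these cells held a Pdgfra UMI, against 0.0637 to 0.156% of the Fabp7-high cells without an Olig1 UMI. At E17.5 it was 20 to 44.7%, against 0.189 to 1.39%. A set of 5 genes, Sox10, Cspg4, Gpr17, Nkx2-2 and Matn4, was used as markers of oligodendrocyte precursors. They are not particular to precursors. At E12.5 every cell with 2 or more of their UMIs also held 3 or more microglial or vascular marker UMIs. Of the cells with 3 or more Olig1 UMIs, 25 to 84.6% at E16.0 and 25.6 to 43.3% at E17.5 held a UMI of any of the 5. In cells without Olig1 at E17.5 the share was 0.471 to 2.51%. Most cells rich in Olig1 at E17.5 thus held no UMI of Pdgfra, at a median depth of 8953 to 12562 UMIs, compared with 5778 to 7587 UMIs in cells without Olig1.

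The other members were compared, as ranges over libraries, between cells rich in Olig1 and Fabp7-high cells without Olig1. At E17.5 their Aldoc level was 97.98 to 217 CPM per library, against 423 to 547 CPM in those without Olig1, and their Apoe level 20.9 to 79.8 against 115 to 286 CPM, neither with overlap. Ranges overlapped for Hopx (2.58 to 24.02 against 12.2 to 35.4 CPM), Aldh1l1 (10.7 to 46.4 against 32.8 to 88.8 CPM) and Sparcl1, whose range lay higher in cells rich in Olig1 (69.5 to 148 against 43.7 to 98.6 CPM). Slc1a3, at 283 to 489.7 CPM, overlapped the 365 to 464 CPM of the others. Tnc was 61.6 to 157 CPM there, against 152 to 238 CPM, an overlap of the extremes. At E16.0 Tnc had been at 0 to 46.4 CPM in cells rich in Olig1 and 42.6 to 90.7 CPM in those without. Eomes, the factor of intermediate progenitors, was 2.09 to 18.6 CPM in cells rich in Olig1 at E17.5 against 234 to 414 CPM, and the radial glia factor Pax6 77.3 to 124 against 345 to 440.4 CPM. The markers of interneurons summed to 18.4 to 97.5 CPM in all Fabp7-high cells of E17.5, and Dlx2, one of them, was at 8.25 to 84.02 CPM in cells rich in Olig1 and 4.31 to 37.7 CPM in those without.

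**Figure D3:**
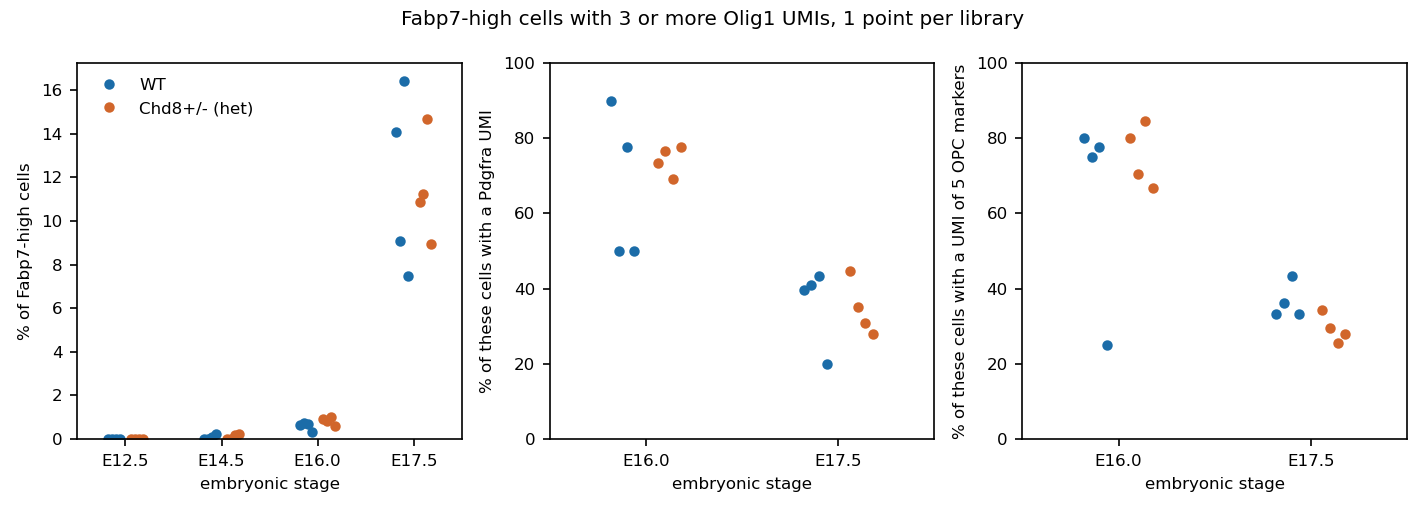
Fabp7-high cells with 3 or more Olig1 UMIs, 1 point per library: their share of the Fabp7-high cells at each stage (left), and, at E16.0 and E17.5, the percentage of them with a Pdgfra UMI (middle) or with a UMI of Sox10, Cspg4, Gpr17, Nkx2-2 or Matn4 (right). The share reached 7.49 to 16.4% at E17.5, when 20 to 44.7% of these cells held a Pdgfra UMI.

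Removing every cell with a UMI of those 5 genes left the rise of the oligodendrocyte genes in the last step in place. Some of the removed cells held microglial or vascular markers. From E16.0 to E17.5 the WT steps then were 6.09 for Olig1, 4.72 for Olig2 and 3.78 for Pdgfra, with adjusted p-values of 3.05e-13, 3.05e-12 and 4.01e-05. The earlier steps were not all called: from E14.5 to E16.0 Olig1 moved by 3.03 (adjusted p = 0.00254), Olig2 by 0.97 (0.105) and Pdgfra by 2.08 (0.267). The WT step of Olig1 from E12.5 to E14.5 became 1.35 (adjusted p = 0.347), and that of Pdgfra was called as a fall (-2.83, adjusted p = 0.0186). Without cells that hold a UMI of any of 8 precursor markers, the call of Olig1 from E14.5 to E16.0 was lost too (2.80, adjusted p = 0.0685).

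Over all retained cells, 8 of the 10 genes were called from E12.5 to E14.5 in WT, 6 higher and Pdgfra and Hopx lower, against 53.9% of the 15873 genes tested. From E14.5 to E16.0, 9 rose and Aldoc was not called, against 13.7%, and from E16.0 to E17.5, 4 rose (Olig1, Olig2, Pdgfra and Sparcl1) and Aldoc and Hopx fell, against 17.6%. Over the whole span 8 were called, all higher, against 68% of all genes, with Hopx (-0.12) and Aldoc (0.11) not among them. Without cells that hold a UMI of the 8 precursor markers, Pdgfra over that span was instead called as a fall (-1.28, adjusted p = 0.0234). With 1 library left out, 6 to 9 members were called in WT from E12.5 to E14.5, where 7687 to 8798 of all genes were. The early calls of Olig2 and Olig1 in all cells were among those that were lost. From E12.5 to E14.5 that of Olig2 was lost without any 1 of WT M2, F1 or F2 of E12.5 or M2 or F2 of E14.5 (adjusted p 0.0511 to 0.162), and that of Olig1 without WT F1 or F2 of E14.5 (0.0538 and 0.144). From E14.5 to E16.0 that of Olig2 was lost without any 1 of WT M1 or F2 of E14.5 or M1 or M2 of E16.0 (0.0625 to 0.107), and that of Pdgfra without WT M2 of E14.5 (0.0545). Without the 4 libraries of E17.5 with high Fos, the last step of Sparcl1 was 0.49 (adjusted p = 0.125). In summed counts of this kind, fewer cells of a type and less RNA per cell cannot be told apart. Fabp7-high cells made up 25.7 to 51.3% of the retained cells per library at E12.5, 25.4 to 41.4% at E14.5, 22.6 to 41.5% at E16.0 and 11.01 to 19.7% at E17.5.

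The members differed in which cells held their UMIs. Aldoc in all cells stood at 238 to 424 CPM in WT at E16.0 and 76.3 to 139 CPM at E17.5, a step of -1.65 (SE 0.22, adjusted p = 9.86e-06), set beside -0.88 in Fabp7-high cells. Fabp7-high cells outside the microglial, vascular and precursor gates held a median of 96.7% of its UMIs at E16.0 and 91.4% at E17.5 over the 8 libraries. For Aldh1l1 the medians were 96.5% and 91.5%, for Tnc 95.7% and 92.05%, and for Hopx 95.3% and 85.6%. Hopx over all cells had a last step of -0.997 (SE 0.26, adjusted p = 0.00729), and without the 4 E17.5 libraries with high Fos it was -0.69 (adjusted p = 0.142).

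For Apoe, Sparcl1 and Pdgfra, in contrast, these Fabp7-high cells outside the gates held the lesser part at every stage. Of the summed UMIs they held 25.9 to 45.3% for Apoe, 4.1 to 31.9% for Sparcl1 and 2.5 to 24.3% for Pdgfra. Gated cells can also be Fabp7-high: with them, Fabp7-high cells held 243 of 258 Pdgfra UMIs at E16.0 and 612 of 663 at E17.5. Cells with 3 or more UMIs of microglial markers were a median of 0.131 to 0.310% of a library's cells by stage, yet held a median of 31.7, 32.5, 51.3 and 31.96% of all Apoe UMIs over the stages. Cells with 3 or more UMIs of endothelial, pericyte or meningeal markers held 89.5% of the Sparcl1 UMIs at E12.5 and 43.1% at E17.5. They also held 87.3% of the Pdgfra UMIs at E12.5. Of the summed Sparcl1 UMIs of E14.5 they held 31.9%, and cells in none of the gates held 50.1%. In all cells, Pdgfra was lower at E14.5 than at E12.5, with a log2 fold change of -2.79 (SE 0.45, adjusted p = 5.83e-06). Without the microglial and vascular cells the same step was 0.051 (adjusted p = 0.961).

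At the later stages most Pdgfra UMIs lay in cells of a gate on precursor genes, while most UMIs of Olig1 and Olig2 at E17.5 lay outside that gate. Cells with 2 or more UMIs of Sox10, Cspg4, Gpr17, Nkx2-2 and Matn4 numbered 2 to 10 per library at E12.5 and 20 to 36 at E17.5. Those left after cells of the microglial and vascular gates were taken out numbered 0 at E12.5, 5 at E14.5, 58 at E16.0 and 127 at E17.5 over all libraries. They held a median of 71.5% of the Pdgfra UMIs at E16.0 and 66.6% at E17.5. Of the Olig1 UMIs they held 72.9% at E16.0 and 23.98% at E17.5, and of the Olig2 UMIs 37.9% and 13.8%. The remaining Fabp7-high cells held 23.1% of the Olig1 UMIs at E16.0 and 70.5% at E17.5. This gate was chosen after the values were seen, and these shares describe the libraries without a test. A precursor with fewer than 2 captured UMIs of these genes falls outside it, so the shares do not show that cells outside are not precursors.

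**Figure D4:**
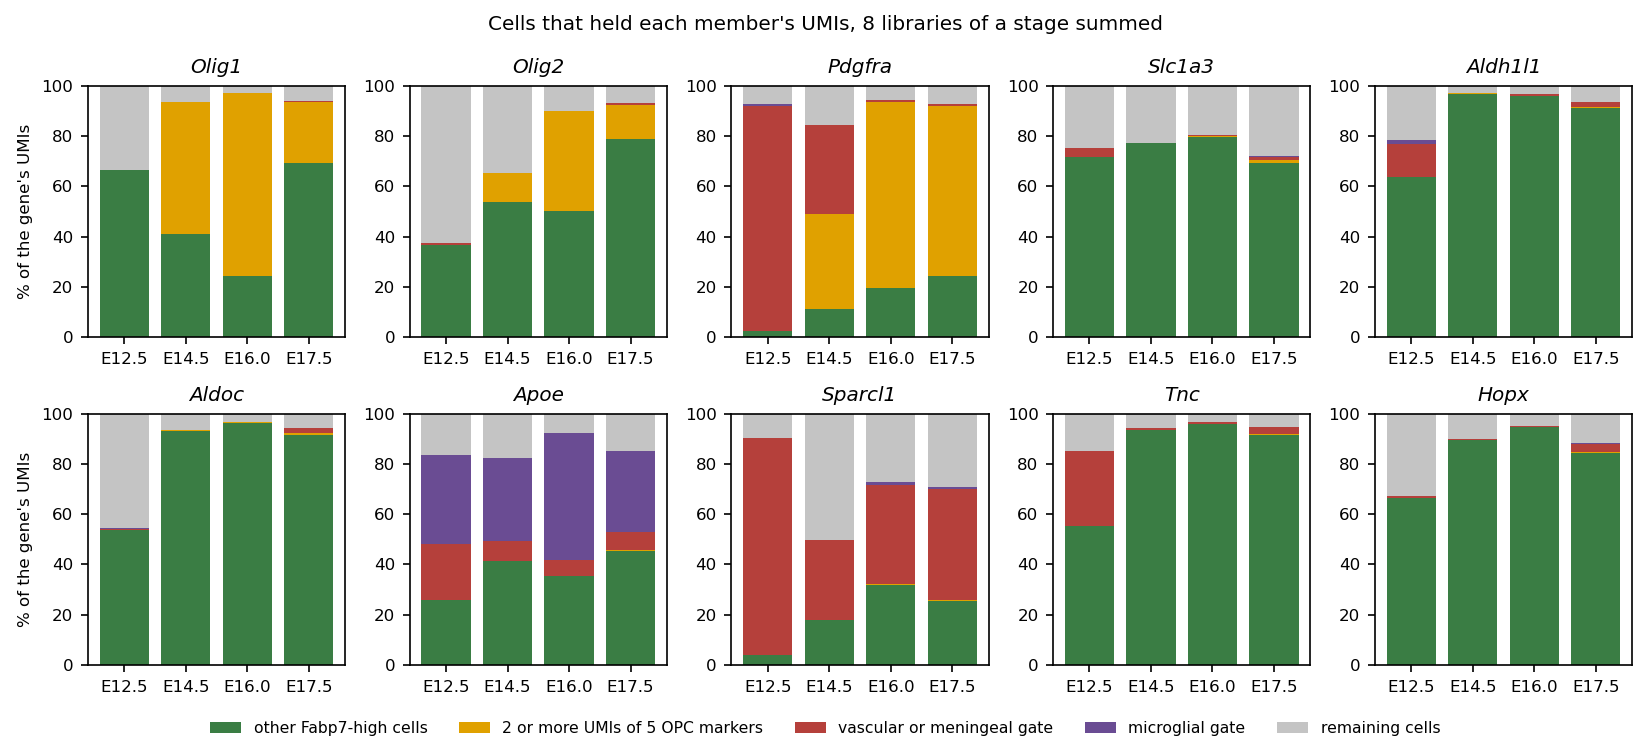
Where the UMIs of each gene lay, as a percentage of all its UMIs summed over the 8 libraries of a stage, in cells with microglial markers, with vascular or meningeal markers, with oligodendrocyte precursor markers, in the other Fabp7-high cells and in the remaining cells. Each cell was placed in the first of these groups that it met, in this order. The part of Olig1 in the precursor gate went from 72.9% at E16.0 to 24.2% at E17.5, and that of Apoe in the microglial gate was 50.7% at E16.0.

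The steps in Chd8+/- Fabp7-high cells were separate contrasts of the same fit. From E12.5 to E14.5, 7 of 10 genes rose (Aldh1l1, Aldoc, Olig1, Olig2, Slc1a3, Sparcl1 and Tnc), against 44.5% of all genes called. From E14.5 to E16.0, 9 rose (all but Aldoc), against 9.5%. From E16.0 to E17.5, 7 rose (Apoe, Hopx, Olig1, Olig2, Pdgfra, Sparcl1 and Tnc) and Aldoc fell, against 28%, while Aldh1l1 and Slc1a3 were not called. With a gate of 10 Fabp7 UMIs both were (0.80, adjusted p = 0.0259, and 0.46, adjusted p = 0.0123), and Aldh1l1 also without Chd8+/- F2 of E17.5 (0.79, adjusted p = 0.0356) or without cells that hold a precursor marker UMI (0.82, adjusted p = 0.0364). The early calls of Olig1 in Chd8+/- were lost in some fits. The first step was 2.97 (adjusted p = 0.0816) without Chd8+/- F2 of E14.5 and 1.65 (0.139) without cells with the 5 precursor genes. The second was 2.31 (0.119) by DESeq2, 1.87 (0.0576) without Chd8+/- M2 of E14.5 and 1.59 (0.0678) without cells with any of the 8 markers. Aldoc rose by 2.31 (SE 0.14, adjusted p = 1.81e-13) in the first step and fell by 1.69-fold in the last, with a log2 fold change of -0.76 (SE 0.14, adjusted p = 0.000135). Olig1 rose by 3.73 (SE 0.53, adjusted p = 8.02e-06) and Olig2 by 3.61 (SE 0.33, adjusted p = 9.19e-09) from E16.0 to E17.5. Hopx was called in that step in Chd8+/- at 0.49 (SE 0.19, adjusted p = 0.0492), close to the threshold, and not in WT. Without the libraries with high Fos it was 0.30 with an adjusted p of 0.358. The call was also lost with any of 8 single libraries left out: Chd8+/- F1 (0.227) and F2 (0.0538) of E17.5, Chd8+/- M2 (0.144), F1 (0.107) and F2 (0.0845) of E16.0, WT F1 of E16.0 (0.0574), and WT M1 (0.0518) and M2 (0.0556) of E14.5. It was lost as well with no filter on low counts (0.0542), with a gate of 3 Fabp7 UMIs (0.144) and without cells that hold a precursor marker UMI (0.0693). All values in parentheses are adjusted p-values of Hopx. Whether a step differed between genotypes was tested by the interaction below.

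No member was called between Chd8+/- and WT, in either population, at any stage or averaged over the stages. In Fabp7-high cells the background of calls was 0.43% of all genes averaged over stages, 1.03% at E12.5, 0.0146% at E16.0, and 0% at E14.5, at E17.5 and for a genotype effect that differs between stages. In all cells it was 0.353% averaged, 0.258% at E12.5, and 0% in each of the others. So few calls over all genes leave little to read from 0 of 10. At an unadjusted p under 0.05, edgeR counted 313 genes at E14.5, 772 at E17.5 and 862 for the interaction in Fabp7-high cells, and 277, 243, 698 and 810 at E14.5, E16.0, E17.5 and for the interaction in all cells. DESeq2 called 1, 4 and 5 genes in the first 3 and 2, 4, 1 and 14 in the last 4. With the matched pair as a block, 1690 genes (12.3%) were called at E12.5 and 136 averaged over stages in Fabp7-high cells, 0 of them members. In all cells the block gave 2210 (13.9%) and 264, with Pdgfra and Sparcl1 among the former. Without Chd8+/- M2 of E12.5, 1957 genes were called at that stage in Fabp7-high cells and 1507 in all cells, and without any other library of E12.5 4 to 39 and 0 to 38. The Chd8+/- libraries that remain without M2 were the shallow ones of that stage, so genotype and depth cannot be told apart in that fit. The intervals that follow are of the fit without the block and take no account of the matching of pairs. Intervals of the fit with the block are not given here. Averaged over stages, Aldoc differed by 0.012 (95% interval -0.12 to 0.15) and Slc1a3 by -0.058 (-0.19 to 0.077), which are narrow. For Olig1 the interval was -0.75 to 1.62 around 0.43, a value that ran from 0.14 to 0.68 with 1 library left out, for Olig2 -0.32 to 0.58 around 0.13 and for Pdgfra -0.69 to 0.83 around 0.071, so that the intervals include changes of considerable size in these genes.

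**Figure D5:**
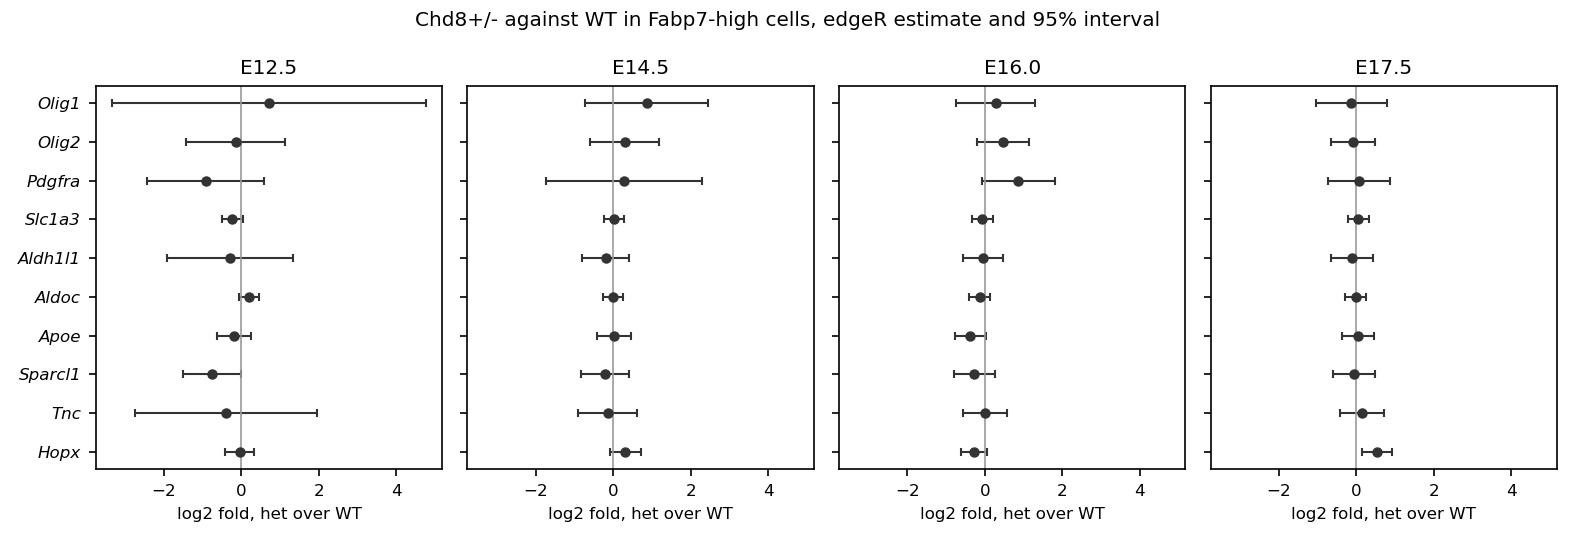
Log2 fold change of Chd8+/- over WT in Fabp7-high cells for each gene and stage, with its 95% interval from edgeR without the matched pair as a block. The intervals are widest for Olig1, Tnc and Aldh1l1 at E12.5, and no gene was called.

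A few differences, picked after their values were seen, are given in full. Hopx at E17.5 was 21.9, 15.8, 33.2 and 23.4 CPM in Chd8+/- and 16.6, 11.5, 12.4 and 22.8 CPM in WT, higher in Chd8+/- in 4 of 4 pairs, with overlapping ranges and a log2 fold change of 0.54 (SE 0.20, edgeR adjusted p = 0.863). Pdgfra at E16.0 was 3.27, 3.85, 3.96 and 2.20 CPM in Chd8+/- and 2.17, 2.08, 2.12 and 0.849 CPM in WT, higher in 4 of 4 pairs and, narrowly, without overlap, at 0.87 (SE 0.48, adjusted p = 1). Sparcl1 averaged over stages was -0.33 (edgeR adjusted p = 0.584), lower in 12 of 16 pairs. Apoe was also lower in 12 of 16 pairs, at -0.12 (adjusted p = 0.844). Olig1 averaged over stages was higher in 13 of 16 pairs (adjusted p = 0.924), among them 4 of 4 at E12.5 and at E14.5, where a library held 1 to 5 and 0 to 100 of its UMIs. Over all cells at E12.5, Sparcl1 was 3.21, 4.06, 3.91 and 4.25 CPM in Chd8+/- and 6.94, 5.44, 6.96 and 6.44 CPM in WT, a change of -0.66 (SE 0.19, adjusted p = 0.0891), which DESeq2 and the fit with the matched pair as a block (-0.64, adjusted p = 0.0185) called. Pdgfra over all cells at E12.5 was 0.474, 0.546, 0.696 and 0.942 CPM in Chd8+/- and 1.23, 1.17, 0.750 and 1.88 CPM in WT, at -0.85 (SE 0.38, adjusted p = 0.261) without the block and -0.87 (SE 0.26, adjusted p = 0.0369) with it. At E12.5 cells with vascular or meningeal markers held 86.2% of the summed Sparcl1 UMIs and 89.6% of those of Pdgfra. These cells were 1.48, 1.69, 1.98 and 2.42% of the retained cells in the WT libraries and 1.40, 1.16, 0.974 and 1.86% in Chd8+/-. Without the microglial and vascular cells, and without the block, the difference was -0.80 (adjusted p = 0.249) for Sparcl1 and 0.21 (adjusted p = 0.930) for Pdgfra. At that stage Chd8+/- M2 grouped with the WT libraries. Without it, 1 member was called in Fabp7-high cells at E12.5, Slc1a3, at -0.42 (adjusted p = 0.0427), where 14.1% of all genes were called, so that 1 of 10 is near that background. The Chd8+/- libraries left in that fit were the shallow ones of the stage, so genotype and depth cannot be told apart there. Slc1a3 was 87.3, 131, 69.8 and 75.02 CPM in Chd8+/- and 146, 109, 119 and 78.7 CPM in WT, and over all libraries it was -0.24 (SE 0.14, adjusted p = 0.371).

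The share of Fabp7-high cells among retained cells did not differ detectably between genotypes. At E12.5 it was 43.3% ± 4.73 (SD, n = 4) in WT and 34.8% ± 11.3 (SD, n = 4) in Chd8+/-, with an exact two-sided permutation p of 0.2. The median depth of retained cells there was 8551.5 to 10464 UMIs in WT, 4088 to 5955 UMIs in Chd8+/- M1, F1 and F2 and 10530 UMIs in Chd8+/- M2. With cells thinned to 2000 UMIs and, since fewer UMIs remain, a gate of 2 Fabp7 UMIs in place of 5, the direction turned, to 30.9% ± 3.92 in WT and 33.02% ± 2.04 in Chd8+/- (exact permutation p = 0.457). The parts of the thinning and of the lower gate in this turn were not separated. At E17.5 the share was 15.6% ± 4.04 and 16.6% ± 3.29, with an exact p of 0.629. It was higher in Chd8+/- in 4 of 4 matched pairs, with an exact sign-flip permutation p of 0.125, the smallest that 4 pairs allow. The smallest p that 4 against 4 libraries allow is 0.0286. The other share tested was that of cells with 3 or more UMIs over 8 genes listed as markers of oligodendrocyte precursors. Its content changed with the stage: at E12.5, 85.3% of its marker UMIs were of Cacng4 and 0 of 241 such cells held an Olig1 UMI, which allows a share of cells with a UMI of up to 1.24%, for counting error only, and sets no limit on cells that express the gene. The share at E12.5 was 0.944% ± 0.244 in WT and 0.272% ± 0.398 in Chd8+/- (exact permutation p = 0.0857), higher in Chd8+/- in 1 of 4 pairs, with the depth gap given above. With cells thinned to 2000 UMIs and a gate of 2 in place of 3 it was 0.198% ± 0.0598 in WT and 0.130% ± 0.0420 in Chd8+/-. At E17.5, 40.1% of the marker UMIs were of Cacng4, and 39.5%, 37.6% and 23.6% of the cells held a UMI of Olig1, Olig2 and Pdgfra. The share at E17.5 was 1.89% ± 0.715 in WT and 2.64% ± 1.18 in Chd8+/- (exact permutation p = 0.343), higher in 4 of 4 pairs (exact sign-flip permutation p = 0.125). It was 2.33 to 4.21% in the 4 libraries with high Fos and 0.917 to 2.04% in the other 4, again without overlap. All 10 unpaired tests of both shares had adjusted p-values of 0.857 or more.

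The other genes of the switch were taken from 5 lists and measured in WT Fabp7-high cells from E12.5 to E17.5, where 27.5% of all genes rose and 28% fell. Of 14 regulators of gliogenesis, 10 rose and 4 fell, with a median log2 fold change of 1.95, against 0.00 over all genes. Nkx2-2 and Sox10, both factors of oligodendrocyte precursors, rose by 6.40 and 6.33, from at most 0.0426 and 0.171 CPM in WT at E12.5 to 1.41 to 5.77 and 4.12 to 14.1 CPM. The Notch target Hes1 fell by 1.92, and Id4, an inhibitor of basic helix-loop-helix factors, fell by 2.61. Of the factors introduced above with the switch, Nfia, Nfib and Nfix rose by 0.74, 1.25 and 2.76, and Sox9 fell by 0.35. Of 14 receptors and transducers of gliogenic signals, 7 rose and 1 fell, with a median of 0.54. The largest rise was that of Egfr, the receptor of epidermal growth factor, by 6.47, from 0.239 to 0.533 CPM at E12.5 through 1.32 to 2.76 CPM at E16.0 to 18.8 to 54.9 CPM at E17.5. The kinase Jak2 rose by 1.66 and Fgfr3 fell by 0.94.

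Of 25 further astrocyte genes 24 were tested, and 21 rose and 3 fell, with a median of 1.81. Bcan, which encodes brevican of the extracellular matrix, rose by 7.14, most of it before E14.5, from 0.287 to 0.384 to 22.7 to 24.9 CPM. Gfap, the filament protein of mature astrocytes, rose by 5.89 but reached no more than 3.05 to 6.07 CPM at E17.5. The gap junction gene Gja1 fell by 2.42, from 79.05 to 94.5 to 16.7 to 23.6 CPM, and Ttyh1 fell by 1.04. Of 15 further oligodendrocyte lineage genes 12 were tested, 10 rose and 0 fell, with a median of 3.70. Gpr17, a receptor of committed precursors, had 0 UMIs in WT at E12.5 and was at least 87.1-fold higher at E17.5, taken against a floor of 3 UMIs over the group, and Omg rose by 5.39. Of this list 5 rose from E12.5 to E14.5, 1 from E14.5 to E16.0 and 9 from E16.0 to E17.5, against 17.2%, 4.94% and 7.54% of all genes. Of 8 further genes of late or basal radial glia 6 were tested, 4 rose and 1 fell, with a median of 1.53, led by Moxd1 at 3.38 and Itgb5 at 2.87, while Sox21 fell by 0.26. In none of the 5 lists was a gene called between Chd8+/- and WT at any stage or averaged, against the backgrounds of calls given above.

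The genes whose levels over the 32 Fabp7-high sums were most like those of the members were sought among 9062 other genes by Pearson's r of log2 CPM. Only genes with a mean log2 of CPM + 1 of 3 or more over the sums were compared. Genes of lower mean level, such as those near 0 until the last stage, could therefore not be found. The sums share stages and libraries, so r mostly measures a common course over the stages and is given without a p. For the mean standardised course of Olig1, Olig2 and Pdgfra the closest were Gng12 (r = 0.961), Nenf (0.958), Atp1b1 (0.957), Grk3 (0.954) and Zcchc24 (0.950). Atp1b1, a subunit of the sodium pump, went from 3.73 to 6.07 CPM at E12.5 through 17.8 to 22.9 CPM at E16.0 to 45.1 to 71.99 CPM at E17.5. For the 5 astrocyte members the closest were Veph1 (r = 0.987), Rnf180 (0.986), Kcnj10 (0.986), Crtc3 (0.986) and Scrg1 (0.985). Kcnj10 encodes the potassium channel of astrocytes and went from 1.71 to 2.90 CPM at E12.5 and 4.77 to 9.18 CPM at E14.5 to 14.7 to 19.7 CPM at E16.0 and 15.2 to 20.2 CPM at E17.5, with the last pair of stages overlapping. Scrg1, at most 0.177 CPM at E12.5, reached 39.1 to 69.5 CPM at E17.5.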

How the data were processed

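The authors deposited UMI counts per gene and barcode for each of the 32 libraries, whole numbers that were not normalised. Per the submitters' processing notes, STAR 2.7.9a, STARsolo and Cell Ranger were used with genome build mm10. How cells were called, and whether counting used strand, is not given in the sources used here. Of 145082 barcodes, the 143697 kept had 1000 or more UMIs, 500 or more genes and no more than 10% of UMIs from mitochondrial genes. Doublets were then marked in each library from simulated pairs of its cells and 5471 (3.81%) removed, a number set by assuming 0.8% doublets for every 1000 cells. Free RNA was not modelled. Counts were summed per library over the 41789 cells with 5 or more Fabp7 UMIs and over all 138226 cells. The sums were tested with edgeR 4.0.16 in R 4.3.3 (quasi-likelihood, TMM scaling, filterByExpr, 8 groups in 1 fit), with Benjamini-Hochberg adjustment over all genes and a threshold of 0.05. The p-values measure the spread between embryos that were processed individually. The test was checked on simulated data. Shares of cells were compared with exact permutation tests, or 100000 resamples when averaged over stages, and shares of cells with a UMI were taken after thinning each cell to 2000 UMIs.

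The reported fit had no pair term. The labels state that pairs share litter and sex, and in 16 pairs the correlation of deviations from the group means over 4644 genes was 0.04 to 0.84, over 0.1 in 15. In 11 of the 16 the partner gave the highest correlation among the Chd8+/- libraries of the stage, and in the others another library did. Alternatives were DESeq2 1.42.0, RLE scaling, no filter on low counts, other Fabp7 gates, kept doublets, each library left out, the pair as a block, and, chosen after seeing the data, libraries of 1 sex, the 4 E17.5 libraries of 1 form of code left out and cells with other markers left out. The named genes are the 10 members and, of each other list, the 2 largest rises and the 2 largest falls among the genes called in WT from E12.5 to E17.5. Sox9, Nfia, Nfib and Nfix were named besides, as factors introduced with the switch. The members and lists were chosen with earlier results of these data known. No promoter of Olig1 or Sparcl1 was used here.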

Additional observations from a re-analysis of the deposited data

Results flagged for a closer look

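In 11 of 176 groups of 4 libraries, 1 library lay far from the other 3 by Dixon's gap test, which flags about 1 in 20 groups by chance. Apoe accounts for 3 of them. In all cells, Chd8+/- F2 of E12.5 stood at 45.3 CPM, against 20.2 to 24.1 CPM in the other 3, and Chd8+/- M2 of E17.5 at 141 CPM, against 47.1 to 59.8 CPM. In Fabp7-high cells, WT M2 of E17.5 stood at 212 CPM, against 125 to 128 CPM. Olig2 accounts for 3 as well. In all cells it was lowest in WT F2 of E12.5 at 0.367 CPM, against 0.780 to 0.857 CPM, and highest in Chd8+/- M1 of E16.0 at 7.94 CPM, against 3.89 to 3.98 CPM. In Fabp7-high cells WT F2 of E16.0 was lowest both for Olig2, at 4.71 CPM against 8.94 to 9.54 CPM, and for Pdgfra, at 0.849 CPM against 2.08 to 2.17 CPM. Aldoc in Fabp7-high cells was lowest in WT M1 of E14.5 at 549 CPM, against 586 to 592 CPM. Aldh1l1 in all cells was lowest in WT M2 of E12.5 at 0.0867 CPM, against 0.233 to 0.244 CPM, and Slc1a3 in all cells was lowest in WT F1 of E17.5 at 106 CPM, against 142 to 144 CPM. The share of cells with 3 or more UMIs of the 8 precursor markers was highest in Chd8+/- M2 of E12.5 at 0.864%, against 0 to 0.118%, and this is the library that grouped with WT at that stage. Its median depth was 10530 UMIs per retained cell, against 4088 to 5955 UMIs in the other Chd8+/- libraries of E12.5.

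For 2 genes the 4 pairs of one stage all went one way and the 4 pairs of another the opposite way, among 20 combinations of gene and population compared. Hopx in Fabp7-high cells had a mean log2 ratio of Chd8+/- to WT of -0.27 at E16.0 and 0.57 at E17.5, with a pseudocount of 0.5. Pdgfra in all cells had -0.57 at E12.5 and 0.48 at E16.0. The test over all 4 stages of whether the genotype effect differs between them gave an edgeR adjusted p of 0.760 for Hopx and 0.967 for Pdgfra. The contrast of these particular stages was not tested on its own.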

How the results depend on the processing

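Of the single-gene steps between stages, 1173 of 1253 values under alternatives other than leaving out a library kept their direction and call, 50 lost the call, 6 gained it and 24 turned. With each library left out in turn, 3474 of 3520 kept both. For Chd8+/- against WT averaged over stages, 252 of 269 and 601 of 640 kept them, all without a call. The causes of the changes below were not tested. In Fabp7-high cells, the log2 difference of Chd8+/- from WT averaged over stages turned for Pdgfra to -0.15 with doublets kept and, alike, -0.15 with all barcodes, to -0.51 in males, -0.33 in females, -0.0090 without cells with precursor genes, -0.14 and -0.095 with gates of 3 and 10 Fabp7 UMIs and -0.031 with the gate on thinned cells, and for Olig2 to -0.22 in males and -0.044 without cells with precursor genes. In the first Chd8+/- step, Olig1 turned to -0.22 in males, and Pdgfra to -0.14 with doublets kept, -0.14 with all barcodes, -5.12 in males, -2.18 without cells with precursor genes and -0.17 with a gate of 3. In the first WT step, Olig1 turned to -3.37 in males, Pdgfra to 1.53 without microglial and vascular cells, and Apoe to 0.019 with doublets or all barcodes kept, 0.066 in females, 0.26 without microglial and vascular cells, 0.20 with a gate of 10 and 0.068 with the gate on thinned cells. In all cells, the averaged genotype value turned for Olig2 to -0.12 in males, for Pdgfra to 0.23 in females, 0.042 without the 4 high-Fos libraries of E17.5 and 0.35 without microglial and vascular cells, for Aldoc to 0.0014 in females and 0.025 without cells with any of the 8 precursor markers, and for Tnc to -0.071 without microglial and vascular cells. WT steps in all cells turned for Olig1 (-0.76) and Slc1a3 (-0.061) in males and for Pdgfra (0.051) without microglial and vascular cells from E12.5 to E14.5. Without cells with the 8 markers they turned for Pdgfra (-1.28, called) and Aldoc (-0.00065) from E12.5 to E17.5, for Pdgfra from E14.5 to E16.0 (-0.42) and for Apoe from E16.0 to E17.5 (-0.090, and -0.030 with no filter on low counts). Over the whole span Pdgfra turned to -0.15 without cells with the 5 precursor genes and Hopx to 0.19 without the high-Fos libraries.

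Members called from E14.5 to E16.0 numbered 4 instead of 9 in Chd8+/- Fabp7-high cells of females, where calls over all genes fell from 1305 to 165. In all WT cells of females they numbered 2 instead of 9, where calls over all genes fell from 2169 to 77. From E12.5 to E14.5 in all WT cells without cells with the 8 markers they numbered 5 instead of 8. The calls over all genes in that fit are not given here, so a general loss of calls cannot be told from a loss in the members. Between genotypes at E12.5 in all cells DESeq2 called 1 (Sparcl1), with 5.14% of all genes called, and the fit with the replicate block 2 (Pdgfra and Sparcl1), against 0 as reported. This pairing changed no other call of a member. Leaving out 1 library gave 0 to 1 members at E12.5 in Fabp7-high cells, the 1 being Slc1a3 without Chd8+/- M2, where 14.1% of all genes were called. It moved the averaged genotype value in Fabp7-high cells over -0.023 to 0.036 for Aldoc, -0.13 to 0.23 for Olig2, -0.51 to 0.38 for Pdgfra and -0.22 to 0.13 for Tnc, and in all cells over -0.053 to 0.038 for Aldoc and -0.11 to 0.080 for Pdgfra. The same moved the first step of Apoe in WT Fabp7-high cells over -0.21 to 0.10 and of Pdgfra in Chd8+/- over -0.50 to 2.56, and in all WT cells the last step of Aldh1l1 over -0.46 to 0.0031 and of Apoe over -0.21 to 0.15, and the whole span of Aldoc over -0.080 to 0.23 and of Hopx over -0.41 to 0.069. The genotype difference in the share of Fabp7-high cells, in percentage points, turned to 2.10 at E12.5 and 1.02 averaged with thinned cells, whose gate was also lowered from 5 to 2 Fabp7 UMIs, and ran over -0.56 to 4.74 at E14.5, -5.92 to 0.13 at E16.0 and -0.52 to 2.18 at E17.5 without 1 library. For the share over the 8 markers it turned to -0.013 at E14.5 with a gate of 5, to 0.018, 0.015, 0.16 and 0.054 at E16.0 with doublets kept, all barcodes, thinned cells (with a gate of 2 in place of 3) and a gate of 5, and to -0.00682 averaged with all barcodes, and ran over -0.21 to 0.10 at E16.0 and -0.064 to 0.16 averaged without 1 library. Over all genes, calls between genotypes at E12.5 in Fabp7-high cells numbered 141 as reported, 0 with the stage fitted alone, 1690 with the block, 866 by DESeq2, 265 by RLE scaling and 42 without a filter, and 4 to 1957 with 1 library left out. In all cells they ranged from 0 to 2210, and from 0 to 1507 with 1 library left out. Both 1957 and 1507 are without Chd8+/- M2 of E12.5, which leaves only the shallow Chd8+/- libraries of that stage. Averaged over stages they ranged from 1 to 136 and from 0 to 264, and with 1 library left out from 33 to 140 and from 32 to 71. WT steps in males or females alone had 1745 to 2592 calls from E12.5 to E14.5 and 147 to 527 from E14.5 to E16.0 in Fabp7-high cells. Depth sets limits at E12.5, where a Fabp7-high library held 1 to 5 UMIs of Olig1, 0 to 14 of Pdgfra, 1 to 10 of Aldh1l1 and 1 to 11 of Tnc, and at E14.5 for Pdgfra (0 to 7).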
